A study of Mus musculus with 4 samples.

Results

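Carbonic anhydrases are zinc enzymes that interconvert carbon dioxide and water with bicarbonate and a proton. The family divides by where its members work: in the cytosol, in the mitochondrion, secreted into fluids, or on the cell surface, with a few relatives that have lost catalytic activity. In the skeleton the family is best known from the osteoclast, where Car2 supplies protons for dissolving mineral, and from poorly oxygenated cells, where Car9 is induced by hypoxia-inducible factors. Growth plate cartilage has no blood vessels and its cells depend on glycolysis, so acid handling is part of chondrocyte physiology. The genes described are Car2, Car3, Car4, Car5b, Car6, Car8, Car9, Car12, Car13 and Car14, which are 10 of the 16 carbonic anhydrase family genes measured and 10 of 19938 genes in all. They were chosen by their symbols and by measured values of the day 15 against day 0 comparison. Their differences between the days are therefore given as a description, with no test. Each was measured by 1 probe set annotated to that gene alone.

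The RNA came from ATDC5 cells, a mouse chondroprogenitor line that makes a cartilage-like matrix in culture. In the day 15 group (2 arrays) the cells had been given insulin, transferrin and selenite for 15 days, and in the day 0 group (2 arrays) they were undifferentiated. Both groups grew in the same basal medium with serum, glutamine, an antibiotic mixture and ascorbic acid. Cells kept for 15 days without the supplement were not analysed here, so time in culture, the supplement and differentiation cannot be told apart. The model is a single cell line, and the labels do not say whether the 2 samples of a day came from separate cultures. The p-values therefore rest on the spread between 2 samples a day, and that spread may be technical.

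Values are log2 of the deposited intensity plus 1 after quantile normalization, and a difference is day 15 minus day 0 on that scale. The added 1, and any background left in the deposited values, would make the difference of a dim gene look smaller. The 4 arrays had median log2 values of 7.87 to 8.06 before normalization, and their number limits the precision of every value. The median gene had a mean level of 8.72 and the 10th percentile of genes was 6.32. No detection call was used, so values in that low range may lie at background. As a check of the cell type, all 10 chondrocyte markers were higher on both day 15 arrays than on both day 0 arrays. Limma called 6 of them at an adjusted p below 0.05 over all genes. Of all genes, 22.3% were separated in that direction and 1.30% were called higher. Hapln1, the cartilage link protein, had the largest difference (6.14 log2). On both days 6 of 15 osteoclast and macrophage markers were at least 1 log2 higher in replicate 1 than in replicate 2. They were Csf1r, C1qa, C1qb, C1qc, Cd68 and Tyrobp. The share of all genes with such an excess is not given, so nothing is read from the count itself. C1qb, a complement component of macrophages, was at 11.11 and 5.8 on the day 15 arrays of replicates 1 and 2, against 11.36 and 6.09 on the day 0 arrays. The summed intensity of the 15 markers was 8927 and 2851 at day 15, against 8782 and 2555 at day 0. None of the 10 carbonic anhydrases showed that pattern, the largest excess in replicate 1 on both days being 0.16 log2. For this reason the difference is also given between the replicate 1 arrays alone and between the replicate 2 arrays alone.

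Among the 10 genes Car3 was far higher at day 15, Car9 was higher by about 1 log2, Car6 was modestly higher, and the other 7 differed by less than 0.3 log2. The median difference of the 10 was 0.14 log2, beside 0.02 over all genes tested. The mean was higher at day 15 for 8 and lower for 2. The arrays of the days did not overlap for 5 genes, all higher at day 15 (Car3, Car6, Car9, Car12 and Car13), and overlapped for the other 5. Over all genes the days did not overlap for 40.1%, and for 22.3% with day 15 higher. Since the same contrast chose the genes, nothing is read from these counts. In a sample of many cells, a change in the number of expressing cells and a change in RNA per cell cannot be told apart.

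**Figure D1:**
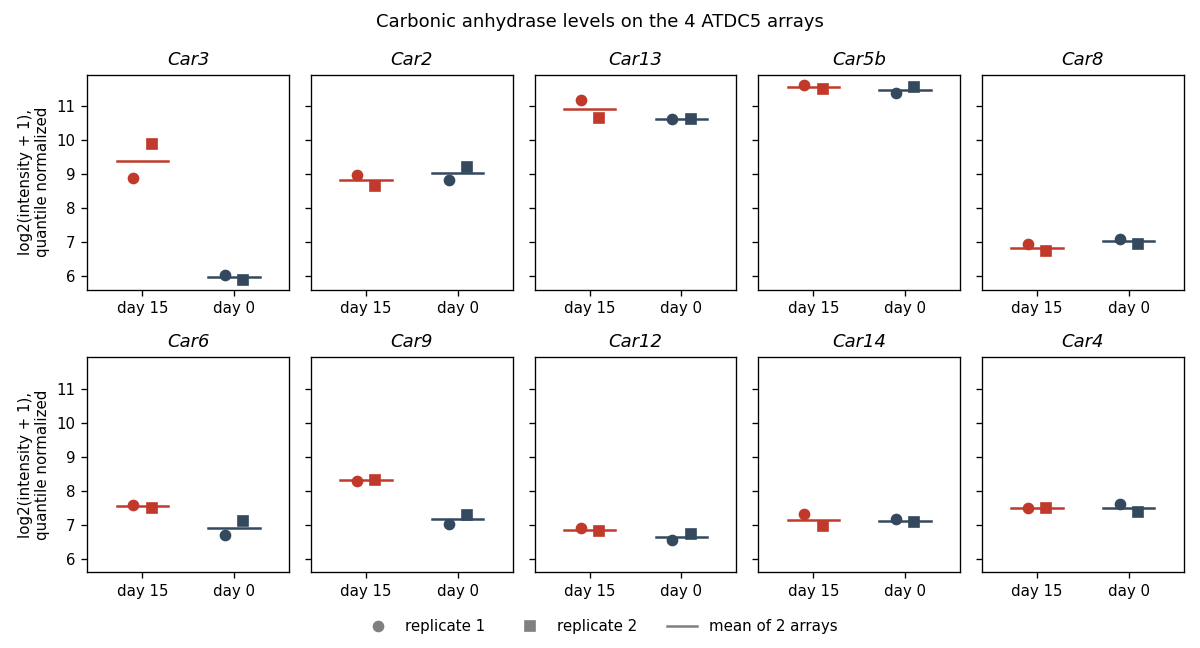
Log2 intensity of the 10 carbonic anhydrase genes on each array (points, circle for replicate 1 and square for replicate 2) with the mean of each day (line), day 15 left of day 0. Car3 separates the days most, at 8.89 and 9.88 against 6.04 and 5.9, followed by Car9 at 8.3 and 8.33 against 7.02 and 7.3.

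Of the 3 genes for active cytosolic enzymes, Car3 was the one with a difference above 0.3 log2. Car3 encodes a cytosolic isoform of low hydratase activity that is abundant in slow skeletal muscle, liver and fat (probe set 10490913). Its deposited intensity was 461.47 and 970.95 on the day 15 arrays, against 65.41 and 63.08 on the day 0 arrays. Both day 15 arrays were thus high and both day 0 arrays low, with no overlap. In normalized log2 values Car3 was at 9.38 ± 0.7 at day 15 and 5.97 ± 0.1 at day 0 (SD, n = 2 arrays each), a difference of 3.41 log2, or 10.6-fold. The day 0 mean lay at percentile 6.5 of all genes and the day 15 mean at percentile 56.7, so the day 0 level may be background and the fold may be understated. Ordered by increase, Car3 was number 42 of 19938 genes.

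The 2 day 15 arrays differed for Car3 by 0.99 log2, with replicate 2 higher, which is more than the 0.15 between the day 0 arrays. The 6 macrophage markers named above were higher on the replicate 1 arrays than on the replicate 2 arrays. For Car3 the difference was 2.84 log2 between the replicate 1 arrays and 3.98 between the replicate 2 arrays. The smaller of these is still 7.17-fold. Summed over the 10 chondrocyte markers, the intensity was 23150 and 31110 on the day 15 arrays of replicates 1 and 2, against 7818 and 6845 on the day 0 arrays, so that the array with the higher Car3 also had the higher chondrocyte sum. The part of that in the Car3 values was not tested.

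Because Car3 is also an abundant protein of muscle and fat, markers of those cells were examined on the same arrays. Limma called none of 11 skeletal muscle markers and none of 10 adipocyte markers (0 and 1 with an unadjusted p below 0.05). Of all genes only 1.72% were called, so the absence of calls in lists of this size says little, and intensities are given. The muscle markers summed to 2833 and 2640 at day 15, against 3085 and 2609 at day 0. Their largest difference in size was 0.41 log2 for Mylpf, a fast muscle myosin light chain. The adipocyte markers summed to 3862 and 3884 at day 15, against 5043 and 5931 at day 0. Pparg, the master regulator of fat cells, was the brightest of that list and had its largest difference. It was lower, at 10.61 and 10.6 at day 15 against 11.47 and 11.68 at day 0 (−0.97 log2, limma adjusted p = 0.0695). The fall in the sum came mostly from Pparg, and the other adipocyte markers differed by −0.26 to 0.13 log2. Adipoq, the adipocyte hormone adiponectin, stayed dim, at 6.55 and 6.6 at day 15 against 6.82 and 6.81 at day 0.

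The genes nearest to Car3 in pattern were sought by the Euclidean distance between profiles of the 4 arrays, each centred on its own mean, among 9969 genes of at least median level. The 5 nearest were Gper1, a membrane receptor for estrogen (distance 0.25), Acan, the core protein of the cartilage proteoglycan aggrecan (0.28), the corepressor Rcor2 (0.41), the secreted protein Lgi2 (0.46) and the adhesion receptor Adgrd1 (0.46). Being chosen for their closeness to Car3, they were bound to be higher at day 15, and their day 0 means lay at percentiles 28.7 to 41.8 of all genes. Acan was at 10.22 and 11.56 at day 15, against 7.5 and 7.22 at day 0. Gper1 was at 10.16 and 10.92 at day 15, against 7.35 and 7.27 at day 0. Likeness here rests on 4 values a gene and describes these arrays alone.

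**Figure D2:**
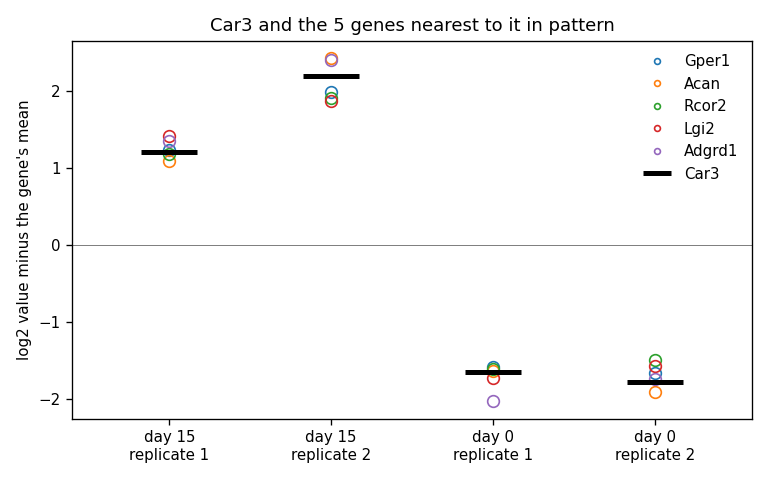
Log2 value minus the gene's mean over the 4 arrays, for Car3 (bars) and the 5 genes nearest to it in pattern (circles), with the day 15 arrays left of the day 0 arrays. The 5 genes were picked for their closeness to Car3, so their points fall near its bars, with Acan at 10.22 and 11.56 at day 15 against 7.5 and 7.22 at day 0 before centring.

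Car2, the fast cytosolic enzyme known from osteoclasts and red cells (probe set 10490923), showed no separation. It was at 8.97 and 8.66 at day 15, against 8.83 and 9.22 at day 0. The days overlapped, and the difference of −0.21 log2 was smaller than the gap between the arrays of either day (0.31 and 0.39). It was 0.14 between the replicate 1 arrays and −0.56 between the replicate 2 arrays, so its sign is not settled. No osteoclast or macrophage marker was called by limma among 15, where 1.72% of all genes were called. Of the 15, 1 had an unadjusted p below 0.05. That was Itgb3, an integrin subunit of osteoclasts, at 9 and 8.67 at day 15 against 8.34 and 7.94 at day 0 (0.7 log2, limma adjusted p = 0.274). Differences in the list ran from −0.33 log2 to 1.2 log2 for Cd68, with a median of −0.17. Of its other osteoclast genes, Acp5, Calcr, Mmp9, Oscar and Ocstamp differed by −0.33 to −0.02 log2. Ctsk and Dcstamp differed by 0.3 and 0.14 log2, and all of these genes lay below the median gene. The fit had no replicate term, so markers in excess in replicate 1 had wide standard errors (2.2 log2 for C1qb, 0.59 for Cd68). For those markers the absence of a call decides nothing. Cd68 was higher at day 15 by 1.25 log2 in replicate 1 and 1.15 in replicate 2. Csf1r, C1qa, C1qb and Tyrobp were slightly lower in both, and C1qc took both signs. By the same measure of likeness as for Car3, the 5 genes nearest to Car2 were Aste1, Nubp2, Qtrt1, Phlda3 and Tmem14c (distances 0.02 to 0.05).

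Car13, another cytosolic isoform (probe set 10490903), was among the brighter probe sets, at 11.17 and 10.65 at day 15 against 10.62 and 10.61 at day 0. The lower day 15 array was barely above the day 0 arrays, and the difference of 0.29 log2 came from replicate 1 (0.55) far more than from replicate 2 (0.04). Car13, Car1, Car3 and Car2 follow each other in this order on mouse chromosome 3 in RefSeq's GRCm38.p6 annotation, with no other protein-coding gene between them. Their differences were 0.29, 0.2, 3.41 and −0.21 log2.

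Car5b, the mitochondrial isoform expressed in many tissues (probe set 10607738), was bright on every array and nearly level. It was at 11.63 and 11.49 at day 15, against 11.39 and 11.57 at day 0, a difference of 0.08 log2 with overlapping days. Car8 encodes a family member that lacks a zinc-binding histidine and is inactive as an enzyme, known for binding the inositol trisphosphate receptor in Purkinje cells (probe set 10511429). It was dim, at 6.95 and 6.73 at day 15 against 7.1 and 6.95 at day 0. The difference of −0.18 log2 was negative in both replicate numbers (−0.15 and −0.22), yet the days overlapped and all 4 values were below the median gene.

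The remaining 5 genes encode enzymes that act outside the cell, and for 4 of them (Car4, Car6, Car9 and Car14) the promoter is shown, because it holds the core letters ACGTG at which hypoxia-inducible factors are known to bind. Promoters were found for 6 of the 10 genes (Car5b and Car12 besides), and none for Car2, Car3, Car8 or Car13. Each window runs from 250 bases before to 50 bases after a transcript start, from RefSeq on build GRCm38.p6, and is printed on the gene's strand. Capitals mark ACGTG on either strand, which on the opposite strand reads CACGT. The form GCGTG was not searched for and is not marked, so a window without a match may still hold that form. Where both overlap as CACGTG the letters are also those of an E-box. Of all 32851 promoter windows, 19.6% hold the motif, as do 5 of the 15 windows of the whole family (33.3%). Among the family genes outside the 10, Car10 has a match, and it differed by −0.02 log2. A match is a description of the letters and not a bound site.
Car9 (chr4:43506776-43507075, plus strand): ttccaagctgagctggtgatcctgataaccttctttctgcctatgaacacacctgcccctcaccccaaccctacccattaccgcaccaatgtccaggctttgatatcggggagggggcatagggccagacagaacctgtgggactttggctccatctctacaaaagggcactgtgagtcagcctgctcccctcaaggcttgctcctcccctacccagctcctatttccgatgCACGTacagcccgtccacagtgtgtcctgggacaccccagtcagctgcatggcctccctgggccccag
Car6 (chr4:150201086-150201385, minus strand): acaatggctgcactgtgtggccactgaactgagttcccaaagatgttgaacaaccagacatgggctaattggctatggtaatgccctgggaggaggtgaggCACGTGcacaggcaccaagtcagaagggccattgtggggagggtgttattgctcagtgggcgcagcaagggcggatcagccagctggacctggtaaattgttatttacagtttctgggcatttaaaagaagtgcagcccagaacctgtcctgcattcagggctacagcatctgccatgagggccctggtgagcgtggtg
Car14 (chr3:95904636-95904935, minus strand): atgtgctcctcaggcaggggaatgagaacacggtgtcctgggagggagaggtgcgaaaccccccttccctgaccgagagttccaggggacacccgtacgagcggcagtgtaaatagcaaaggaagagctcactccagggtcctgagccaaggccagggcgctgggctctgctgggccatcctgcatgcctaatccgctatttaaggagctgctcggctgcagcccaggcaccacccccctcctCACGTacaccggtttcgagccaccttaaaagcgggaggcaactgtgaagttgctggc
Car4 (chr11:84957504-84957803, plus strand): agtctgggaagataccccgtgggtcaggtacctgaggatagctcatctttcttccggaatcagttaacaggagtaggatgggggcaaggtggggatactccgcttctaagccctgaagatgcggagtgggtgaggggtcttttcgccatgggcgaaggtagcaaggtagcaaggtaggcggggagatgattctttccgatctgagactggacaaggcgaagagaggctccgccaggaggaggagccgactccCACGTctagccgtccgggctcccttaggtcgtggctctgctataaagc

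Car9, a membrane enzyme with an extracellular catalytic domain and a classical hypoxia-induced gene (probe set 10504337), had the second largest difference of the 10. Its deposited intensity was 302.39 and 351.96 on the day 15 arrays, against 125.25 and 163.09 on the day 0 arrays. The days did not overlap, and the day 15 arrays agreed closely after normalization. In normalized log2 values Car9 was at 8.32 ± 0.02 at day 15 and 7.16 ± 0.2 at day 0 (SD, n = 2 arrays each), a difference of 1.16 log2, or 2.24-fold. It was 1.29 between the replicate 1 arrays and 1.04 between the replicate 2 arrays. Even the day 15 mean lay at percentile 44.9 of all genes. In the promoter printed above, the motif begins 18 bases before the transcript start, on the opposite strand.

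Car6, the secreted isoform of saliva and milk (probe set 10518751), was at 7.58 and 7.51 at day 15, against 6.7 and 7.12 at day 0. The days did not overlap, but the day 0 arrays were 0.43 log2 apart and the difference of 0.64 log2 (1.55-fold) was 0.89 in replicate 1 and 0.38 in replicate 2. Its promoter holds the palindrome CACGTG, whose first base lies 149 bases before the transcript start.

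The other 3 surface enzymes were nearly level. Car12, a transmembrane isoform found with Car9 in many tumours (probe set 10586591), was at 6.91 and 6.81 at day 15, against 6.57 and 6.74 at day 0, a difference of 0.21 log2 in which replicate 2 contributed 0.07. Car14, another transmembrane isoform (probe set 10500283), was at 7.32 and 6.96 at day 15, against 7.17 and 7.08 at day 0. Car4, which is held on the membrane by a lipid anchor and is well known from lung and kidney (probe set 10379866), was at 7.5 on both day 15 arrays, against 7.6 and 7.38 at day 0. Car14 and Car4 each differed by 0.01 log2 with overlapping days, and both signs occurred between replicate numbers. The motif begins 7 bases before the transcript start in Car14 and 2 bases after it in Car4. The 4 genes whose promoters are printed thus had differences from 0.01 to 1.16 log2.

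The 6 family genes that are not among the 10 were also fitted. They are what the choice by measured values left, so their lack of calls is not independent of it. Limma called none of Car1, Car5a, Car7, Car10, Car11 and Car15 at an adjusted p below 0.05 over all genes, and 1 had an unadjusted p below 0.05. That was Car11, a secreted relative without enzyme activity, at 9.42 and 9.02 at day 15 against 8.53 and 8.77 at day 0, a difference of 0.57 ± 0.21 log2 (SE, limma adjusted p = 0.36). The other 5 differed by −0.09 to 0.2 log2 (limma adjusted p = 0.825 to 0.992). They comprise Car1 of red cells, Car5a of liver mitochondria, Car7 of the cytosol, the inactive relative Car10 and the membrane-anchored Car15. The median of the 6 was 0.06 log2.

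**Figure D3:**
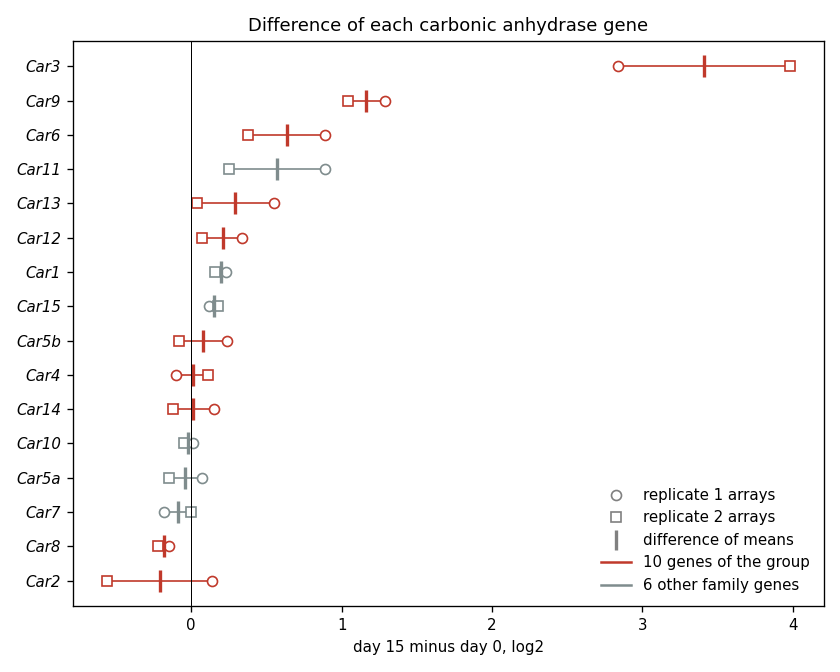
Day 15 minus day 0 in log2 for the 16 carbonic anhydrase family genes, as the difference of means (tick) and between the arrays of each replicate number (circle and square), with the 10 genes described in red and the other 6 in grey. Car3 lies at 2.84 to 3.98 and Car9 at 1.04 to 1.29, while Car2, Car5b, Car4 and Car14 span 0.

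Carbonic anhydrases work with transporters that move bicarbonate, protons and lactate, and lists of such genes were counted in the same fit. Among 24 subunits and accessory proteins of the vacuolar proton pump, which acidifies organelles and the space outside some cells, limma called 1 higher and none lower, where 1.72% of all genes were called and 1.30% were called higher. This was Atp6v0a4, a membrane subunit isoform best known from acid-secreting kidney cells, at 9.59 and 9.85 at day 15 against 6.91 and 6.97 at day 0 (2.78 ± 0.18 log2, SE, limma adjusted p = 0.00326). The list's median difference was 0.4 log2, beside 0.02 over all genes, and 22 of 24 differences were above 0, beside 10602 of 19938 over all genes. An unadjusted p below 0.05 was found for 10 of the 24, and these include Atp6v1c2, which was lower (−1.56 log2, limma adjusted p = 0.203). The share of all genes with such a p is not given, so no excess is read from this count. Atp6v0d2, a subunit of osteoclasts and kidney, was at 8.52 and 6.72 at day 15 against 5.3 and 5.47 at day 0 and was not called (limma adjusted p = 0.17). Its difference of 2.23 log2 depended on which day 15 array was kept. It was 1.33 log2 without day 15 replicate 1 and 3.13 log2 without day 15 replicate 2. The larger value rests on the day 15 array where 6 of the 15 osteoclast and macrophage markers were in excess. The part of those markers in this difference was not tested.

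Of 19 proton and monocarboxylate transporters and their partners limma called 1 higher and none lower. Over all genes 1.72% were called and 1.30% were called higher. Slc9a3r2, a scaffold protein of sodium-proton exchangers, was at 10.22 and 10.35 at day 15 against 9.14 and 9.23 at day 0 (1.1 ± 0.17 log2, SE, limma adjusted p = 0.0441). No fit that dropped 1 array called it (limma adjusted p = 0.126 to 0.158), and the call was also lost with quantile normalization over probe sets of 1 symbol (0.0552) and with an intensity trend and robust hyperparameters (0.0638). Slc16a4, of the monocarboxylate transporter family, had the largest difference of the list, at 9.59 and 9 at day 15 against 7.63 and 6.31 at day 0, and was not called (2.32 log2, limma adjusted p = 0.0938). Without day 0 replicate 1 its difference was 2.98 log2 and it was called (limma adjusted p = 0.0114). The list's median was 0.16 log2, and 6 of the 19 had an unadjusted p below 0.05. Of those 6, Slc9a5 and Slc16a1 were lower (−0.61 and −0.44 log2), and no excess is read from the count.

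No bicarbonate or anion exchanger of families Slc4 and Slc26 was called among 20 with limma (2 with an unadjusted p below 0.05), and the median was 0.06 log2. Slc26a11, a sulfate transporter, and Slc26a2, the sulfate transporter that cartilage needs for its proteoglycans, had the largest differences (0.86 and 0.73 log2, limma adjusted p = 0.188 and 0.219). None of 15 water and gas channels was called with limma (2 with an unadjusted p below 0.05). Aqp1, the water channel that also passes carbon dioxide, was bright and at 13.46 and 13.36 at day 15 against 12.57 and 12.16 at day 0 (1.05 ± 0.2 log2, SE, limma adjusted p = 0.0909). With trend and robust hyperparameters it was called (limma adjusted p = 0.0162). Aqp11 was the other channel with an unadjusted p below 0.05 (0.45 log2, limma adjusted p = 0.382). None of 8 proton and bicarbonate sensing receptors was called with limma (0 with an unadjusted p below 0.05), and their largest difference was 0.1 log2, for the channel Asic1. With only 1.72% of all genes called, the absence of calls in lists of this size says little. The share of all genes with an unadjusted p below 0.05 is not given, so nothing is read from those counts.

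Since Car9 is a known hypoxia-induced gene, 24 other such genes were counted. Limma called 1 higher and none lower, against the 1.72% of all genes. Egln3, a prolyl hydroxylase that marks hypoxia-inducible factors for destruction and is itself induced by them, was at 10.69 and 10.46 at day 15 against 8.26 and 8.48 at day 0 (2.2 ± 0.18 log2, SE, limma adjusted p = 0.00734). The median of the list was 0.29 log2, with 22 of 24 differences above 0, beside 10602 of 19938 over all genes. An unadjusted p below 0.05 was found for 9 of the 24, counting both directions, and no excess is read from that count either. Adm, the vasodilator adrenomedullin, was at 8.95 and 8.69 at day 15 against 7.5 and 8.06 at day 0, which was not called (limma adjusted p = 0.15). Slc2a3, a glucose transporter, was on the other side, at 9.1 and 8.86 at day 15 against 10.33 and 9.59 at day 0 (−0.98 log2, limma adjusted p = 0.227), and was named after its values were seen.

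**Figure D4:**
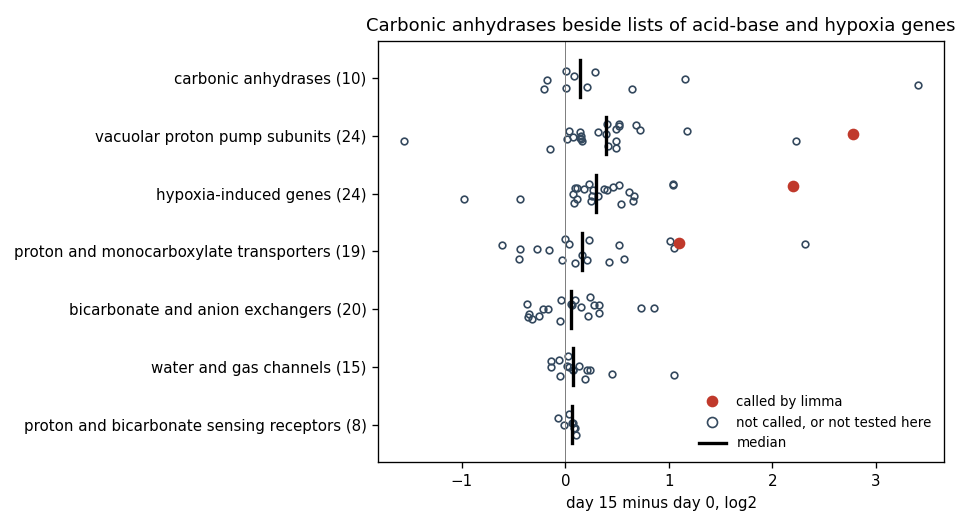
Day 15 minus day 0 in log2 for the 10 carbonic anhydrases and for the genes of 6 lists, 1 point a gene and a bar at each median, with genes called by limma filled in red; the carbonic anhydrases are shown without a test. The called genes are Atp6v0a4 (2.78), Egln3 (2.2) and Slc9a3r2 (1.1), and the medians run from 0.06 for the exchangers to 0.4 for the proton pump.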

How the data were processed

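Each of 4 total RNA samples, labelled with biotin, was measured on its own 1-colour whole-transcript array, per the labels. The deposited values are linear intensities per probe set, judged from the values; how they were background corrected, summarized and normalized is not stated in the labels or the table. Genome build mm9 is named per the submitters' processing notes. No gene coordinates are printed; promoter coordinates are those of RefSeq's GRCm38.p6.

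Of 35512 probe sets 21789 had 1 symbol in the platform annotation, 1621 had several and 12102 none. Symbols were updated through gene identifiers, which were matched for 21698 probe sets. Intensities were taken as log2 of the value plus 1 and quantile normalized over all probe sets; the brightest probe set by its mean represented each of 19938 genes. Day 15 and day 0 were compared with limma (version 3.58.1, run in R 4.3.3; functions lmFit and eBayes, group as the one term, Benjamini-Hochberg over all genes, adjusted p below 0.05). On simulated data the fit was checked against known changes before use. Figures were drawn with matplotlib 3.10.9.

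The genes and lists were chosen with earlier results of these data known. The text names the 10 genes, all other family genes and, from each list, the called genes (up to 6). Where fewer than 2 were called, it names the 2 with the largest difference. It also names the 5 nearest profiles and leading marker genes. Slc2a3, Adipoq, Atp6v1c2, Slc9a5, Slc16a1, the osteoclast genes besides Itgb3 and the neighbouring gene order were added after their values were seen. Tested alternatives were scaling, pseudocount, probe set mean, a level filter, trend and robust hyperparameters, the replicate number as a block, and leaving out each array; those on single list genes were chosen after seeing the data.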

Additional observations from a re-analysis of the deposited data

How the results depend on the processing

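None of 113 differences of the 10 genes recomputed under the 12 alternatives moved by more than the SD between arrays, but most could not. Leaving out 1 array of a pair cannot do so. The block, the variance model and the level filter leave a difference as it is. So does the probe set mean, as each of the 10 genes has 1 probe set. Only the changes of scaling and pseudocount could have moved a difference that far. Car3 ranged from 2.91 to 3.91 log2, Car9 from 1.02 to 1.3 and Car6 from 0.42 to 0.85, while Car4, Car5b and Car14 took both signs. The filter on the level removes 7 of the 10, Car3, Car9 and Car6 among them, and keeps Car2, Car5b and Car13. The count over all genes was 342 and ran from 178 (without day 15 replicate 1) to 284 when single arrays were left out, 208 of them without day 15 replicate 2; such fits borrow the spread of the day that still has 2 arrays. The share of calls that were higher, 76%, stayed between 69.5% and 84.6%. Arrays with the same replicate number deviated together (correlation 0.403 across genes, from 2 pairs, which does not establish a pairing); with a replicate block limma called 628 genes and 6 list genes in place of 3, and Slc16a4 and Aqp1 were among those called (adjusted p = 0.0121 and 0.0408). With no detection calls, it was not tested whether the dim genes among the 10 lie above background.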
